A study of Homo sapiens with 24 samples.

Results

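Newly made RNA was compared in the INTS11-dTAG line of DLD1 cells after 3 h of dTAG13 and after 3 h of the solvent DMSO. These were 4 of the 24 libraries of the series, chosen by their labels: 2 dTAG13 libraries and 2 DMSO libraries of batch 1. DLD1 is a human colorectal adenocarcinoma line, and in these cells a dTAG degron had been knocked in at INTS11, so every cell of both groups carried the tagged protein. dTAG13 is a small molecule that bridges a dTAG-fused protein to the ubiquitin machinery, which directs that protein to the proteasome. TT-seq, the assay used, briefly feeds cells a modified uridine and sequences only the RNA that took it up, so a gene's level follows its recent transcription more than its stored RNA. The series asks what the endonuclease and phosphatase modules of the Integrator complex each do in transcription. Its other batch 1 libraries held an INTS8-dTAG line and a line with an INTS8 variant labelled N211del. Batch 2 held the INTS11 line and the N211del line at 0, 1 and 3 h of dTAG13.

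Integrator binds RNA polymerase II that has paused just downstream of a promoter. Its INTS11 subunit is an RNA endonuclease that cuts the nascent transcript, which can end transcription early, and it also makes the 3' ends of small nuclear RNAs. The complex also carries the phosphatase PP2A, which removes phosphate marks from the polymerase and its elongation factors, and INTS8 helps to hold PP2A in place. Genes induced by signals, such as the immediate early genes, are among the known targets of Integrator. The INTS11, PPP2CA and INTS8 genes themselves were not analysed here, and RNA values cannot show whether the tagged protein was lost. There was no untagged line with dTAG13, so the part of the compound itself cannot be told apart from that of the lost subunit.

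The values were FPKM as the files head them, and in batch 1 they were whole numbers divided by the gene's length in kilobases. No factor for library depth was seen in these values, though scaling before rounding would not show. The main fit applied no further normalization between libraries. The whole-number units summed, over 6653 genes, to 7026277 and 7102298 with DMSO and to 6762187 and 6632364 with dTAG13. The median gene held between 477 and 495 units per INTS11 library. The 2 dTAG13 libraries differed by less than sampling noise over genes (chi-square per gene 0.987), while the 2 DMSO libraries differed by more (1.409). The series design calls them biological duplicates, so n = 2 was kept. Batch 1 counts for gene groups and totals of called genes are given both ways where averaging such pairs moved them by over 1.5 times. The calls of the INTS8 line alone, shares in bins and counts across comparisons were not redone that way. Of 15 colorectal epithelial markers 9 were analysed, and their summed level was 2190 to 2390 FPKM with DMSO and 2150 to 2200 with dTAG13. KRT18 (977 and 1090 with DMSO), KRT8, KRT19 and EPCAM were the highest of them. None of 10 fibroblast, 10 leukocyte or 5 endothelial markers was among the genes analysed. Of 5 neuronal markers TUBB3 and MAP2 were analysed, with a summed level of 35.0 to 36.9 FPKM with DMSO and 50.1 to 54.8 with dTAG13; TUBB3 was called higher (log2 fold change 0.62) and MAP2 lower (-0.40), and the part of this in the results was not tested.

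Over 3 h of dTAG13 the INTS11 line showed large rises, mostly in genes of low level, and falls that were as many but smaller. Of 6579 genes tested, 2575 were called at an adjusted p under 0.05 (39.1%; limma, Benjamini-Hochberg), 1275 higher (19.4%) and 1300 lower (19.8%). The median log2 fold change was 0.52 among genes called higher and -0.30 among those called lower. At 1.5-fold or more, 550 genes were higher (8.36%) and 79 lower (1.2%). With a pseudocount of 1 in place of 0.1, these counts were 309 and 55. They were 396 and 113 after a loess correction for level, 613 and 57 with libraries centred, and 722 and 40 with voom. At 2-fold or more, 194 were higher and 3 lower, and at 4-fold or more 19 were higher and 0 lower. In all 550 and all 79 of these, both dTAG13 libraries lay beyond both DMSO libraries, as they did, in either direction, for 74.7% of all genes tested. With pairs that agree within sampling noise averaged, 1370 genes were called, 878 higher and 492 lower, and voom on the whole-number units called 2099 higher and 1368 lower. After each library had been centred on its median, 1720 genes were called higher and 1610 lower. Without dTAG13 replicate 2, 1686 genes were called (713 lower), and without DMSO replicate 2, 750 were lower. Bulk values cannot tell a change in every cell from a change in some of the cells.

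**Figure D1:**
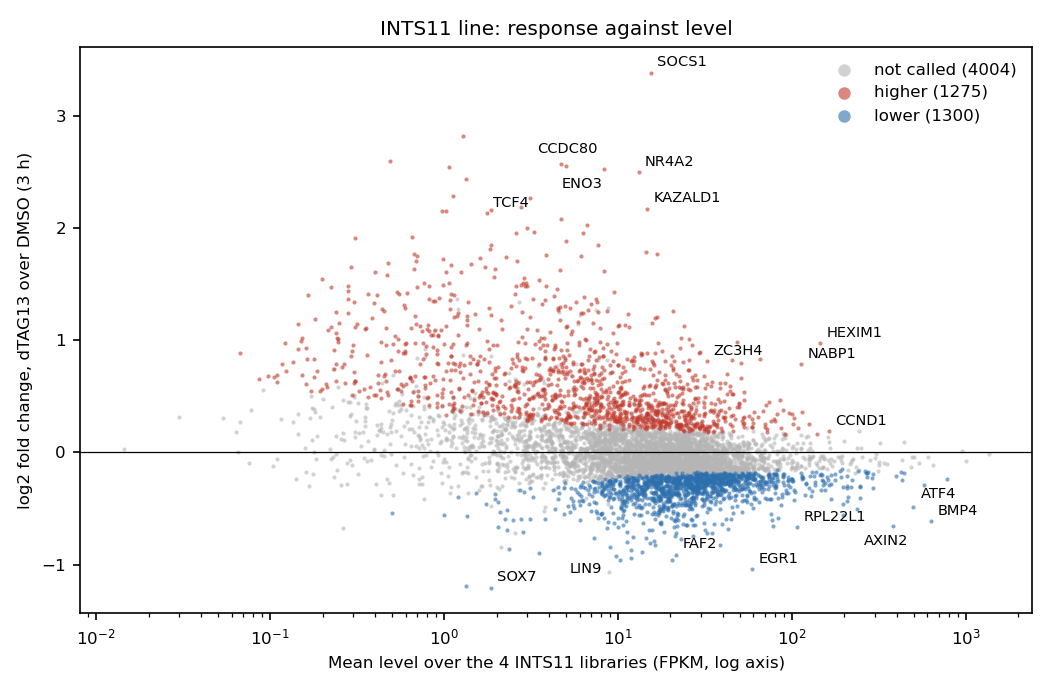
Log2 fold change of each of the 6579 tested genes (dTAG13 over DMSO, 3 h, INTS11 line) against its mean level over the 4 libraries on a log axis, with genes called higher in red, lower in blue and not called in grey. The 1275 genes called higher reach 3.38 (SOCS1) and thin out at high levels, while the 1300 called lower reach -1.20 (SOX7) and lie mostly at middle and high levels.

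Among genes with a mean of at least 1 FPKM and no overlap of the groups, the largest rise was that of SOCS1, an inhibitor of JAK-STAT cytokine signalling. SOCS1 stood at 2.33 and 2.91 FPKM in the DMSO libraries and at 30.9 and 25.6 in the dTAG13 libraries, a log2 fold change of 3.38 (SE 0.145, adjusted p = 3.51e-08). Both dTAG13 libraries were far above both controls, although the control values of this short gene rest on 4 and 5 whole-number units. NR4A2, an immediate early nuclear receptor, went from 3.87 in each DMSO library to 22.7 and 21.9 (2.50, SE 0.084, adjusted p = 2.13e-15). ENO3, the muscle form of the glycolytic enzyme enolase, went from 2.44 and 2.29 to 14.8 and 13.4 (2.53, SE 0.135). KAZALD1, a secreted protein related to growth factor binding proteins, went from 5.05 and 5.53 to 24.9 and 23.4 (2.17, SE 0.091). In each of these genes the groups were wide apart, and in NR4A2 and KAZALD1 the 2 libraries of a group hardly differed.

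Genes that were almost silent in the controls formed much of this set. Ranking by fold change, with the minimum of 1 FPKM taken over all 4 libraries, itself favours genes with low controls. CCDC80, a secreted matrix protein, rose from 1.24 and 1.56 FPKM to 8.01 and 9.36 (log2 fold change 2.56, SE 0.158). TCF4, a basic helix-loop-helix factor of the E-protein class, rose from 0.585 and 0.591 to 2.86 and 2.98 (2.13, SE 0.152), and since it is long, its lowest library still held 105 units. PRDM7, of a family of zinc finger methyltransferases, rose from 0.241 in each DMSO library to 2.55 and 2.07 (2.82), and NNMT, nicotinamide N-methyltransferase, from 0.438 and 0.274 to 2.41 and 2.24 (2.44). The transcription factor genes FOXL1 (2.57), HES2 (2.28), FOXA3 (2.16) and EGR3 (2.15), the anion transporter SLC22A11 (2.27), CCDC114 (2.54) and the RNase P subunit RPP25 (2.19) completed the 15. Of the 15, 9 held under 10 units in at least 1 library, and their sizes are imprecise. RPP25 lost its call without DMSO replicate 1, without either dTAG13 replicate, with a replicate block (adjusted p = 0.145) and with agreeing pairs averaged (adjusted p = 0.249), and FOXA3 with such pairs averaged (adjusted p = 0.146). Among all 550 genes higher by 1.5-fold, 207 (37.6%) had a DMSO mean under 1 FPKM, against 6.89% of all genes tested. The DMSO values also enter the fold change, so this share is a description and not a test.

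The falls were smaller, and most of the largest were in genes of middle level. EGR1, an immediate early zinc finger factor, was at 71.4 and 88.1 FPKM with DMSO and at 37.4 and 39.7 with dTAG13 (log2 fold change -1.04, SE 0.133, adjusted p = 2.88e-04). LIN9, a subunit of the MuvB complex that controls cell cycle genes, was at 13.3 and 13.5 and then at 7.01 and 6.73 (-0.96, SE 0.081, adjusted p = 9.31e-09). FAF2, a factor of endoplasmic reticulum protein degradation, was at 27.8 and 28.5 and then at 14.8 and 15.1 (-0.91, SE 0.077). Groups that did not overlap were a condition for naming these genes, and LIN9 and FAF2 hardly varied within a group. The centrosomal gene CEP20 (-0.96), the LDL receptor chaperone LRPAP1 (-0.94), the nucleotide synthesis enzyme PRPS1 (-0.92), the endosomal DNAJC13 (-0.87), the mitochondrial lyase CLYBL (-0.86), the clock repressor CRY2 (-0.84), the nuclear pore protein NUP210 (-0.82) and the cap-binding protein EIF4E (-0.82) fell by similar amounts. SH3D21 (-0.89) and, at low levels, SOX7 (-1.20), A3GALT2 (-1.19) and GPRASP2 (-0.89) completed the 15. A3GALT2 lost its call without any 1 of the 4 libraries, and GPRASP2 without DMSO replicate 2 or either dTAG13 replicate. The sources used here do not say whether counting used strand, and 12 of these 30 genes overlap another RefSeq gene (among them SOCS1, TCF4, EGR3, LIN9, CEP20, FAF2 and EIF4E), so their values may include its RNA. The same holds for other genes named below, such as HEXIM1, WDR82, BMP4, JAG1, TRAF1, IDI1, AARS2 and HOXB2.

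**Figure D2:**
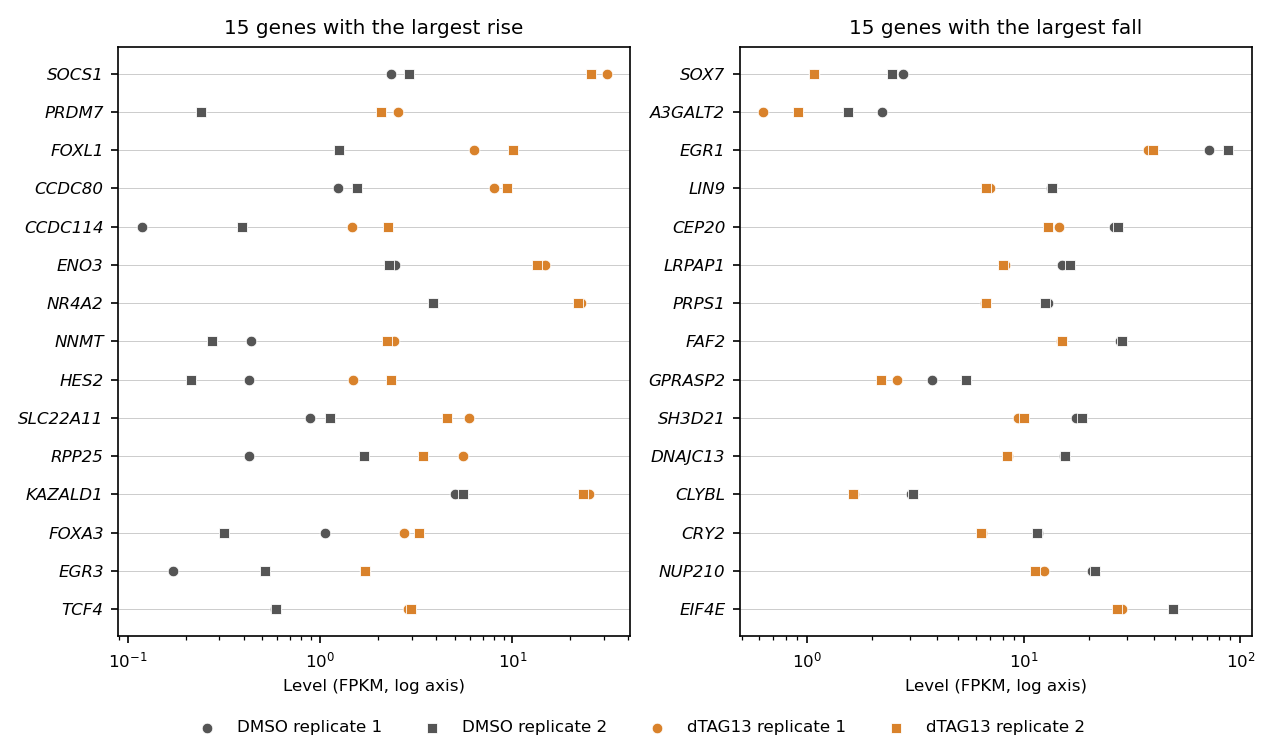
Level in each library (FPKM, log axis) of the 15 genes with the largest rise (left) and the 15 with the largest fall (right), with DMSO in grey, dTAG13 in orange, replicate 1 as circles and replicate 2 as squares. The 30 genes were picked among those whose groups do not overlap. The 2 libraries of a group lie closest together for genes with higher levels, such as LIN9, FAF2 and KAZALD1.

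Promoters of 5 genes are given to show how these sequences differ between genes with large changes: 3 that rose (SOCS1, FOXA3 and HEXIM1, an inhibitor of transcription elongation) and 2 that fell (EGR1 and LIN9). Each run is 300 bases from RefSeq (GRCh38.p14), from 250 bases before to 50 after the annotated start, read 5' to 3' on the gene's strand. Capitals mark matches on either strand to 6 motifs: TATAAA (the TATA box), CCAAT (bound by NF-Y), TGACGT (the core of the cyclic AMP response element), TGACTCA (bound by AP-1), CACGTG (the E-box) and GGGCGG (the GC box). The motifs were searched one by one, so matches may overlap. SOCS1 lies on the minus strand at chr16:11256155-11256454, FOXA3 on the plus strand at chr19:45864076-45864375, HEXIM1 on the plus strand at chr17:45148225-45148524, EGR1 on the plus strand at chr5:138465229-138465528 and LIN9 on the minus strand at chr1:226309454-226309753.
SOCS1: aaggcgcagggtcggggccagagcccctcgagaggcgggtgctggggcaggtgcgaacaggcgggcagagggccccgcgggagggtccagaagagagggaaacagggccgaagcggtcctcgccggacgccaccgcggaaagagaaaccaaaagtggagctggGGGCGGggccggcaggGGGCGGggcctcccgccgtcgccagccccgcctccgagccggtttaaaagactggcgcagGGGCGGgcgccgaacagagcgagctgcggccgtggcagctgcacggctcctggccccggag
FOXA3: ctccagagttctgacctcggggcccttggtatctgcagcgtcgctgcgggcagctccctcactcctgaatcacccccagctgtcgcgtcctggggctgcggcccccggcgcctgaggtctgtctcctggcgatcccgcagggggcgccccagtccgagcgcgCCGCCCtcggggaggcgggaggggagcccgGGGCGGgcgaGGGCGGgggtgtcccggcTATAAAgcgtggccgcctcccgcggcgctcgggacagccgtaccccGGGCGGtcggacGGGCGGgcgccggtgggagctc
HEXIM1: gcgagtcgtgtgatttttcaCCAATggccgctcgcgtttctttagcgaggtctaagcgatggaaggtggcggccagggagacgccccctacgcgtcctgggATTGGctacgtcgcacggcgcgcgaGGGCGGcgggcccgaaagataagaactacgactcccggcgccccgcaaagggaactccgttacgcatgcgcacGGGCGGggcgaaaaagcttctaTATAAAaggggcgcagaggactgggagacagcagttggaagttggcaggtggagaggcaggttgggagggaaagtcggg
EGR1: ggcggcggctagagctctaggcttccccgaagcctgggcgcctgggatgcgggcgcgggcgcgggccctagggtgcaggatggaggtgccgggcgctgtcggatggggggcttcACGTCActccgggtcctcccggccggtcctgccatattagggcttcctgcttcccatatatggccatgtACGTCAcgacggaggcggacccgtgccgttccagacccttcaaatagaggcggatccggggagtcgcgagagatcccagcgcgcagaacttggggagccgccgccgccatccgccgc
LIN9: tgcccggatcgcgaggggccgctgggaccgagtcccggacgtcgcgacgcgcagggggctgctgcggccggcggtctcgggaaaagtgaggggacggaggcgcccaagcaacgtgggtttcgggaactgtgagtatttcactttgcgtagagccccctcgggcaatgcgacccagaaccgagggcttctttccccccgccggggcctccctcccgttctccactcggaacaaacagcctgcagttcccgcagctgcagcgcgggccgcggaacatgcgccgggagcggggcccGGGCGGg

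The SOCS1 window held 3 matches to GGGCGG and none to the other 5 motifs. FOXA3 held 5 matches to GGGCGG and 1 to TATAAA, and HEXIM1 held 1 TATAAA, 2 CCAAT and 2 GGGCGG. EGR1 held 2 matches to TGACGT and LIN9 held 1 GGGCGG. All 5 windows were rich in CG pairs, with 32 to 37 against a median of 27 over all matched promoters. Promoters were matched for 5456 of the 6579 tested genes, among them 444 genes higher and 70 lower by 1.5-fold. TATAAA was found in 5.19% of all matched promoters, in 7.66% of those of genes that rose and in 4.29% of those that fell, and TGACTCA in 3.21%, 4.95% and 0 of 70. TGACGT was found in 11%, 8.11% and 10.0%, CCAAT in 36.7%, 34.5% and 38.6%, CACGTG in 10.3%, 8.78% and 5.71%, and GGGCGG in 71.8%, 65.5% and 64.3%. The median number of CG pairs was 23 for genes that rose and 23.5 for those that fell. When genes were put in 5 bins by level, those of the lowest bin, where most risers were, had TATAAA in 5.87%, TGACTCA in 4.82% and a median of 24 CG pairs. These are descriptions of windows, with no test.

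The gene groups below are read against all genes tested, of which 19.4% were called higher and 19.8% lower, and 13.3% and 7.48% with agreeing pairs averaged. Of 20 immediate early and AP-1 genes tested, 11 were called higher and 3 lower (median log2 fold change 0.38, against -0.03 over all genes tested), and 10 and 1 with averaged pairs. Beside NR4A2, its relative NR4A3 went from 4.91 and 5.22 FPKM to 13.2 and 14.4 (1.43, SE 0.091), and the AP-1 subunit FOSB from 1.39 and 1.67 to 4.73 and 4.18 (1.48, SE 0.126). HBEGF, a ligand of the EGF receptor, went from 6.47 and 7.12 to 17.1 and 15 (1.23, SE 0.110), and FOS from 7.35 and 8.82 to 12.3 and 11.2 (0.54, SE 0.093). Not all members rose: EGR1, MCL1 and RHOB were called lower, and MYC, at 182 and 202 with DMSO and 183 and 190 with dTAG13, was not called (-0.04, limma adjusted p = 0.666). The 3 called lower were no larger a share than among all genes. With averaged pairs the share lower was 5.0%, against 7.48% of all genes. Of 15 MAPK feedback genes 5 were higher and 3 lower (median 0.08), and 4 and 1 with averaged pairs; 3 of 15 is about the share called lower among all genes. The group was led by the phosphatase genes DUSP10 (0.64), DUSP4 (0.45) and DUSP7 (0.38).

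Among developmental pathways, 8 of 17 Notch pathway and HES genes were higher and 1 lower (median 0.30). DLL4, a Notch ligand, went from 3.6 and 4.31 FPKM to 9.66 and 10.4 (1.32, SE 0.124), and the Notch target HES1 from 33.7 and 34.8 to 43.3 and 51.5 (0.46, SE 0.079). The targets HEY2 (1.05) and NRARP (0.49) and the ligand JAG1 (0.28) also rose. At 3 h against 0 h in batch 2, DLL4 (1.58), HEY2 (1.32), NRARP (0.71) and JAG1 (0.40) were called higher and HES1 was not called (0.24). Of 22 TGF-beta and BMP pathway genes 5 were higher and 2 lower (median 0.02), about the share called higher among all genes, and 2 and 1 with averaged pairs. The inhibitor SMAD6 went from 0.285 and 0.248 to 1.10 and 1.17 (1.75, SE 0.141) and the transcription factor SNAI1 from 8.13 and 12 to 23.7 and 21.8 (1.19, SE 0.157), whereas the ligand BMP4, among the genes of highest level, fell from 712 and 817 to 499 and 501 (-0.61, SE 0.065). Wnt genes were divided, with 8 of 30 higher and 8 lower (median 0.01; 6 and 5 with averaged pairs). The Wnt target AXIN2 fell from 441 and 484 to 299 and 287 (-0.66, SE 0.066) together with the coreceptor LRP5 (-0.49) and the adaptor DVL1 (-0.41), while the receptor EPHB3 (0.90), the inhibitor APCDD1 (0.72) and, slightly, CCND1 (145 and 157, then 172 and 172; 0.19, SE 0.061) rose. AXIN2 (-0.385), LRP5 (-0.176), EPHB3 (0.865), APCDD1 (0.552) and CCND1 (0.456) were called the same way in batch 2, and DVL1 was not called there (0.164).

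Of 16 cholesterol synthesis and uptake genes, 10 were higher and 1 lower (median 0.24). PMVK, phosphomevalonate kinase, went from 7.28 and 6.36 FPKM to 11.9 and 13.3 (0.88, SE 0.092) and IDI1, isopentenyl-diphosphate isomerase, from 40.7 and 37.9 to 61.6 and 62.9 (0.66, SE 0.069). With averaged pairs 5 were higher and 0 lower. In batch 2, 5 of the 16 were called higher and 4 lower, against 2357 and 1343 of the 6569 genes tested in both batches. The share called higher in batch 2 was thus no larger than among all genes. Of 22 interferon-stimulated genes 5 were higher and 0 lower (median 0.09), about the share called higher among all genes. MX1, a dynamin-like antiviral protein, went from 1.3 and 1.68 to 4.43 and 4.38 (1.51, SE 0.137), and IFI6 (0.82) and HERC5 (0.80) also rose. IFIT1 (0.05), which interferon induces strongly, was not called (it was named after its value was seen, as were LDHA and PKM). Of 15 NF-kB target and chemokine genes 5 rose and 5 fell (3 and 4 with averaged pairs), among them the adaptor TRAF1 (1.14) upwards and the chemokines CXCL8 (-0.41) and CXCL2 (-0.44) downwards. TRAF1 (1.346) and CXCL8 (-0.405) were called the same way in batch 2, but CXCL2 was called higher there (0.17). Of 25 hypoxia and glycolysis genes 7 rose and 3 fell (median 0.05; 4 and 0 with averaged pairs), with NDRG1 (0.90) and the oxygen sensor EGLN3 (0.82) next to ENO3, while LDHA (0.02) and PKM (0.04) were not called.

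Among the genes of the machinery around Integrator named here, HEXIM1 had the largest change. HEXIM1, which holds the elongation kinase P-TEFb inactive in the 7SK complex, went from 95.2 and 101 FPKM to 193 and 192 (log2 fold change 0.97, SE 0.066, adjusted p = 4.49e-10). This was a rise at a high level, with both dTAG13 libraries above both DMSO libraries. The P-TEFb cyclin CCNT1 (-0.28) and the elongation factor ELL (-0.49) fell, and in all 2 of 9 P-TEFb and 7SK genes were higher and 4 lower (median -0.18; 2 and 1 with averaged pairs). Of 13 pausing and elongation factor genes 1 was higher and 4 lower (median -0.15; 0 and 2 with averaged pairs), among them the NELF subunit NELFB (-0.42, SE 0.090) and the PAF1 complex subunit LEO1 (-0.39). HEXIM1 was called higher in batch 2 too (0.78), but CCNT1 (-0.07), ELL (-0.01), NELFB (-0.14) and LEO1 (-0.10) were not called there.

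Of 8 Integrator subunit genes tested 2 were higher and 1 lower (2 and 0 with averaged pairs). NABP1, the single-strand binding subunit that the complex shares with DNA repair, went from 83.9 and 81.5 FPKM to 146 and 140 (0.79, SE 0.061), INTS2 from 12.3 and 11.9 to 18.9 and 17.8 (0.60, SE 0.085), and INTS1 fell from 12.5 and 13.6 to 11 and 10.0 (-0.31, SE 0.085). NABP1 (0.79) and INTS2 (0.54) were called higher in batch 2 too, but INTS1 was also called higher there (0.16, limma adjusted p = 0.0402). Of 8 PP2A subunit genes 0 were higher and 4 lower (median -0.20; 0 and 1 with averaged pairs), among them the regulatory subunits PPP2R5C (-0.31) and PPP2R2A (-0.26). Of 17 cleavage and termination factor genes 1 was higher and 9 lower (median -0.21; 1 and 4 with averaged pairs). The one that rose, ZC3H4, which restricts unproductive transcription, went from 23.0 and 23.9 to 41.8 and 40.7 (0.81, SE 0.074), while its partner WDR82 went from 56.5 and 55.8 to 39.7 and 40.9 (-0.48, SE 0.064). SYMPK, the scaffold of the cleavage complex, fell from 22.5 and 23.3 to 14.0 and 13.9 (-0.71, SE 0.079), and the cleavage factor CLP1 (-0.42) and the termination exonuclease XRN2 (-0.20) were also lower. ZC3H4 (1.23), WDR82 (-0.35), SYMPK (-0.44) and XRN2 (-0.16) were called the same way in batch 2, and CLP1 was not called there (-0.11).

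Nuclear exosome and RNA decay genes had 0 of 11 higher and 6 lower (median -0.19; 0 and 2 with averaged pairs), with EXOSC2 at 48.6 and 51.5 FPKM and then 32.8 and 33.5 (-0.59, SE 0.071). Of 44 Mediator, polymerase II and initiation factor genes 2 were higher, MED18 (0.68) and MED7 (0.56), and 19 lower (7 with averaged pairs), with MED4 (-0.64) and MED28 (-0.64) lowest. Of 16 genes for small nuclear RNA transcription and assembly, a process that needs Integrator, 3 were higher and 4 lower (median -0.04; 2 and 2 with averaged pairs): GEMIN6 (0.64), a subunit of the SMN complex, rose and COIL (-0.50), the marker of Cajal bodies, fell.

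Several large groups of highly transcribed genes had many members called lower, by small amounts, and few or none called higher. Of 32 cytosolic ribosomal protein genes 0 were higher and 22 lower (median -0.21), of 54 splicing factor genes 0 and 30 (median -0.20), of 42 ribosome biogenesis and polymerase I genes 0 and 24 (median -0.21), of 38 respiratory chain genes 0 and 20 (median -0.24), of 32 nuclear pore and transport genes 0 and 18 (median -0.20) and of 26 proteasome genes 0 and 16 (median -0.22). Among all genes 19.8% were lower, and 36.4% among those of the highest of 5 bins by level. The share was 25.3% in the bin below it, which holds the median levels of respiratory chain (29.6 FPKM) and nuclear pore genes (29.1 FPKM). With agreeing pairs averaged the numbers lower were 9 ribosomal protein, 10 splicing factor, 11 ribosome biogenesis, 11 respiratory chain, 8 nuclear pore and 5 proteasome genes. RPL22L1, a paralog of a ribosomal protein, went from 127 and 134 FPKM to 83.5 and 81.4 (-0.66, SE 0.068), the proteasome ATPase PSMC6 from 52.2 and 53.7 to 32.8 and 32.9 (-0.69, SE 0.079), and the complex I subunit NDUFS4 from 14.5 and 13.3 to 8.52 and 8.44 (-0.71, SE 0.090). Among the translation factors 14 of 27 were lower and 1 higher (6 and 0 with averaged pairs), and among the chaperones 15 of 31 lower and 2 higher (8 and 0). Level moved with these counts: after a loess correction of each library for level, 13 ribosomal protein, 18 splicing factor, 19 ribosome biogenesis, 15 respiratory chain, 17 nuclear pore and 11 proteasome genes were still called lower, with medians from -0.13 to -0.07. Of all 6579 genes, 1384 were called lower after this correction. Ribosomal protein genes have many processed copies elsewhere in the genome, so their values are uncertain. The genes of highest level that were called lower were HSP90AA1 (-0.23), BMP4, CXCL5 (-0.29), RPS6 (-0.18) and the stress factor ATF4 (552 and 600, then 420 and 403; -0.48, SE 0.058), and those called higher were CCND1, HEXIM1, CDC42EP3 (0.16), PHLDA2 (0.25) and NFKBIZ (0.36).

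**Figure D3:**
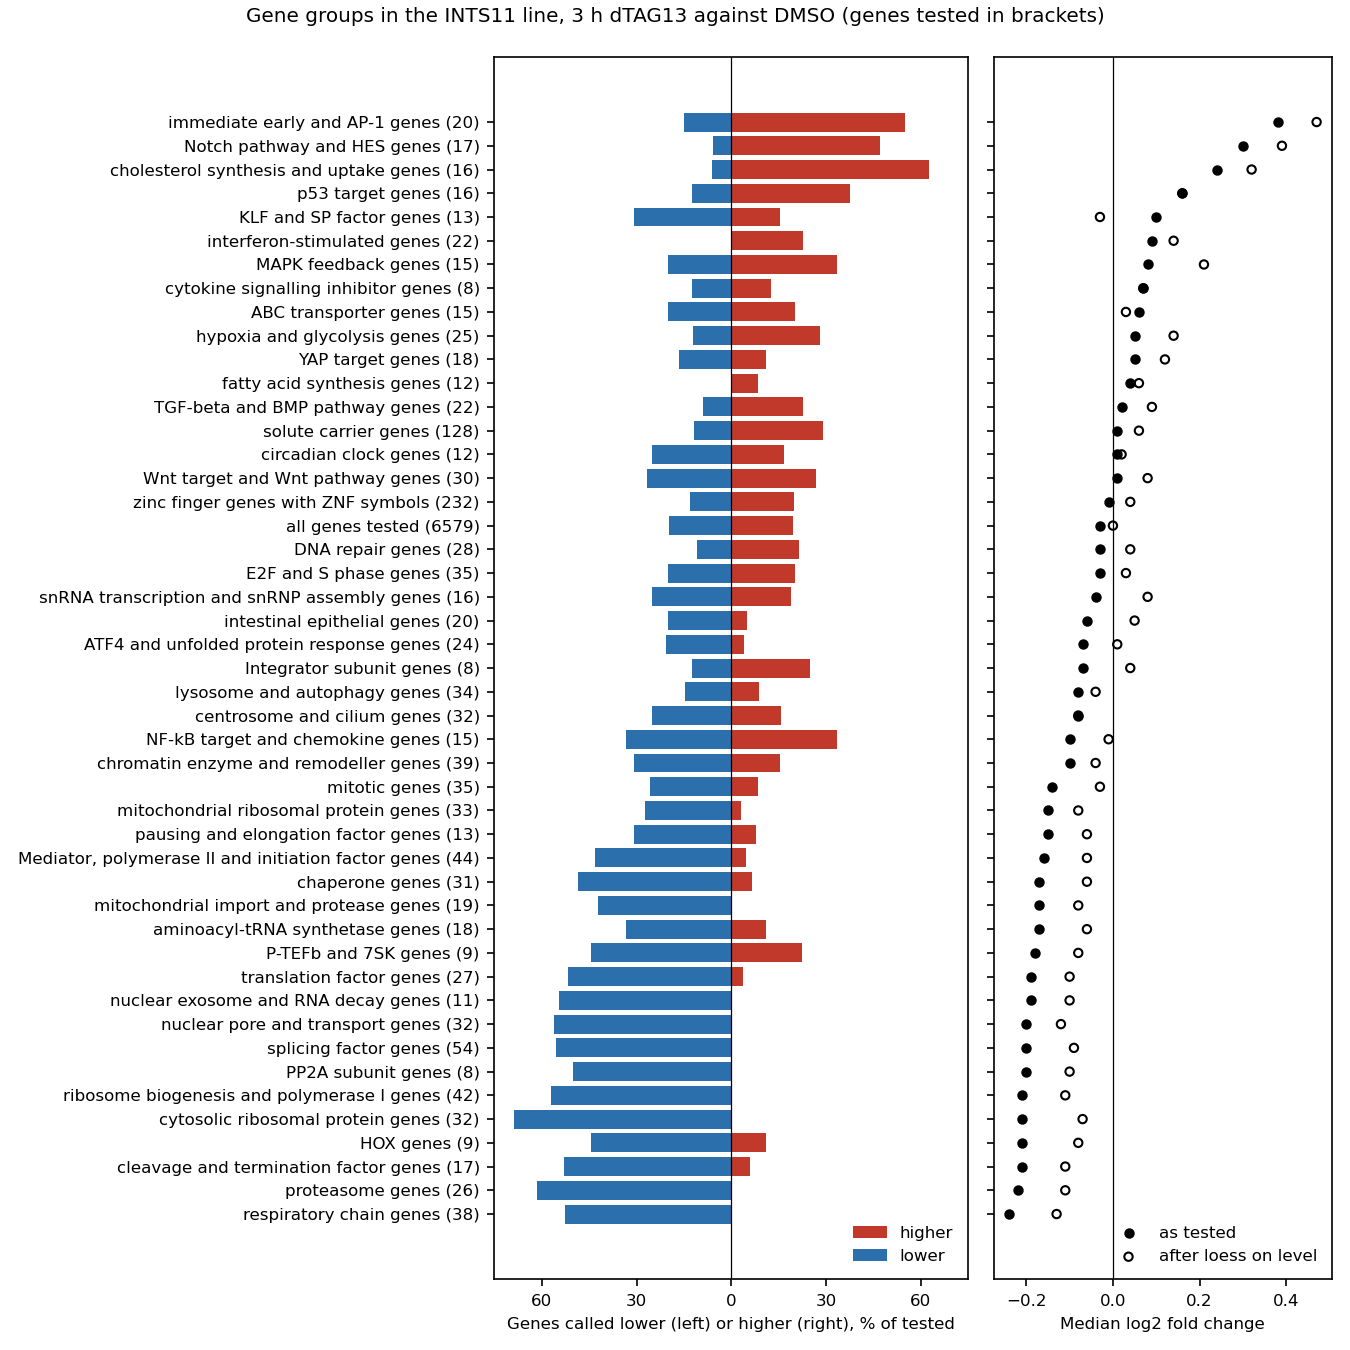
Left, share of the tested members of each gene group with at least 8 tested members called lower (blue, drawn to the left) or higher (red, drawn to the right) in the INTS11 line, with the number tested in brackets; right, the median log2 fold change of the group as tested (filled) and after a loess correction for level (open). Immediate early genes stand at the top with a median of 0.38 and respiratory chain genes at the bottom with -0.24, and the groups at the bottom move towards 0 with the correction.

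The response varied with a gene's level more than with its length. With the genes in 5 equal bins by mean level, in the lowest 41.9% were called higher and 2.81% lower (median log2 fold change 0.31), and in the highest bin 8.21% were higher and 36.4% lower (median -0.13). Of the 550 genes higher by 1.5-fold, 361 were in the lowest bin, where the median gene held 65.625 units per library. Across the 6579 genes Spearman's rho was -0.42 between the log2 fold change and mean level, a description over genes of the same libraries, which are not independent replicates. With gene length rho was -0.08, and length and level were themselves related (-0.24). The share called higher was 22.6% in the bin of shortest genes and 17.4% in that of the longest, and 144 and 97 of their genes rose by 1.5-fold. The same order by level was seen in the INTS8 line (medians 0.45 in the lowest and -0.09 in the highest bin) and in batch 2 (0.37 and -0.02). By length, the medians of the shortest and longest bins were 0.03 and -0.04 in batch 1. Batch 2 had a wider gap by length (0.21 and -0.03), and the INTS8 line had 0.09 and 0.13. Intron content was not analysed here.

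**Figure D4:**
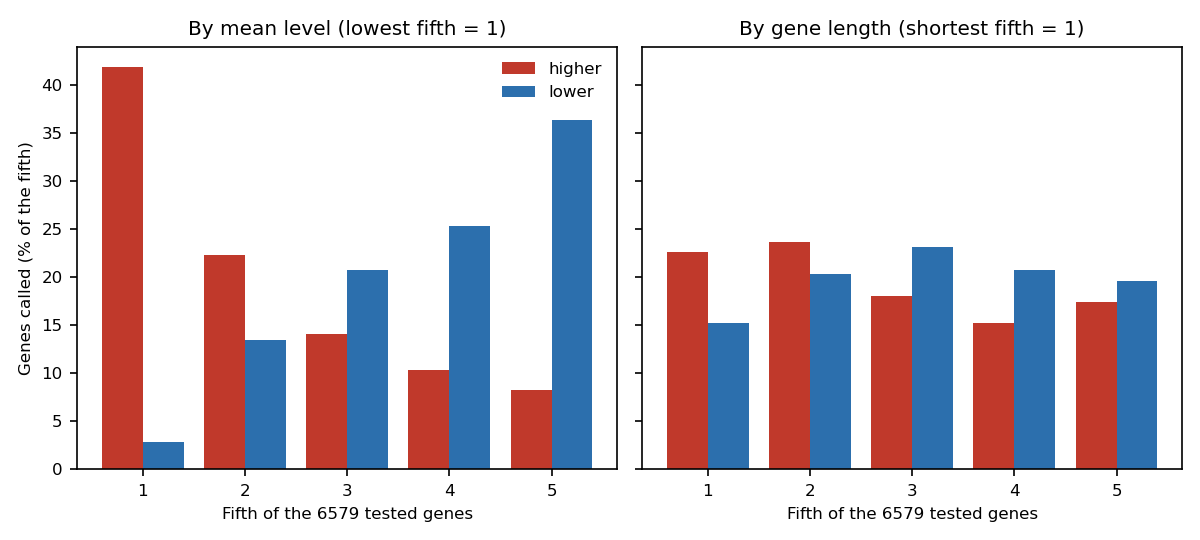
Share of genes called higher (red) and lower (blue) in 5 equal bins of the 6579 tested genes, ordered by mean level (left) and by gene length (right). By level the share called higher goes from 41.9% in the lowest bin to 8.21% in the highest while the share called lower goes from 2.81% to 36.4%, and by length both shares stay between 15.2% and 23.7%.

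Genes next to each other were then set side by side. Among 222 pairs of adjacent protein-coding genes on the same strand with at most 5000 bases between them (RefSeq order), the log2 fold changes of the upstream and the downstream gene had a Spearman's rho of -0.01. Of 16 genes that lay just downstream of one that rose by 1.5-fold, 2 were called higher and 6 lower (median -0.14), against 19.4% and 19.8% of all genes tested. Among 91 divergent pairs rho was -0.20 and among 123 convergent pairs 0.17. FOXA3 and SYMPK are a divergent pair, 1178 bases apart, of which one rose (2.16) and the other fell (-0.71). TMEM38A (1.37) and SMIM7 (-0.72), divergent and 994 bases apart, differed in the same way, and PDE11A (1.15) and TTC30A (1.245), on the same strand, both rose. These 3 pairs were chosen after their values were seen, and gene order comes from another genome build than the files may use.

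In batch 2 other libraries of the same line were taken at 0 h and 3 h of dTAG13, with no vehicle group, and 3847 of 6950 genes were called (55.4%), 2503 higher (36.0%) and 1344 lower (19.3%). With agreeing pairs averaged 2275 were called (1626 higher and 649 lower), and with libraries centred 2207 were higher and 2009 lower. Of the 1274 genes called higher in batch 1 and tested in batch 2, 1083 (85.0%) were called higher there and 6 lower. These 1083 were 45.9% of the genes called higher in batch 2 and tested in batch 1. Of the 1300 called lower, 781 (60.1%) were called lower in batch 2 and 55 higher, and the 781 were 58.2% of those called lower in batch 2. Past 1.5-fold the shares were 91.3% of 549 risers and 87.3% of 79 fallers. All 15 genes with the largest rise were called higher again, SOCS1 at 2.84 and TCF4 at 2.02, with HES2 much smaller (0.62). Of the 15 with the largest fall 12 were called lower again, such as CEP20 (-1.30), FAF2 (-0.91) and LIN9 (-0.85). EGR1 was among them at only -0.25, and SOX7 (-0.11), A3GALT2 (-0.64) and GPRASP2 (0.10) were not called. INSIG1, which restrains cholesterol synthesis, was higher in batch 1 (0.40) and lower in batch 2 (-0.47).

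In the INTS8 line, treated in the same way in batch 1, 55.6% of the 6579 genes were called, 34.6% higher and 21% lower. All 15 genes with the largest rise were also called higher in the INTS8 line, and for 4 of them, CCDC80, NR4A2, PRDM7 and ENO3, the rise was smaller in the INTS11 line by the test of the difference. For SOCS1 the difference was -0.55 (SE 0.205, adjusted p = 0.0772) and for KAZALD1 0.04 (SE 0.129, adjusted p = 0.851). Of the 550 genes higher by 1.5-fold in the INTS11 line, 158 rose less than in the INTS8 line and 49 rose more, and after each library had been centred 150 of 613 rose less and 110 more. Over all genes the difference was called for 1673 (25.4%), 395 higher (6.0%) and 1278 lower (19.4%) in the INTS11 line. With agreeing pairs averaged 904 were called, 176 higher and 728 lower. Centring turned the split to 1373 higher and 1125 lower, and the loess correction for level to 1121 and 1269.

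The largest gaps were in genes that the INTS8 line raised or lowered strongly. FOSB rose by 1.48 in the INTS11 line and 5.00 in the INTS8 line (difference -3.52, SE 0.178, adjusted p = 1.44e-11). DIO3, which inactivates thyroid hormone, rose by 2.03 and 4.96, SEMA3G, a secreted semaphorin, by 1.4 and 4.05, NDRG1 by 0.90 and 3.52, and KHDRBS3, an RNA-binding protein, by 0.72 and 3.30. RGS2, a regulator of G protein signalling, had 8.35 and 5.87 FPKM with DMSO and 8.66 and 8.04 with dTAG13 in the INTS11 line (0.25, not called) against 3.00 in the INTS8 line. In the other direction TMEM45B (-0.43 and -2.77), HOXB2 (-0.55 and -2.57), PRR15L (-0.39 and -2.20) and CYFIP2 (-0.33 and -1.97) fell in both lines and less in the INTS11 line. The INTS11 calls of HOXB2 and TMEM45B were close to the threshold (limma adjusted p = 0.0456 and 0.0466). Batch 2 of the INTS11 line had TMEM45B called lower (-0.29), with HOXB2 (-0.05), PRR15L (-0.14) and CYFIP2 (0.10) not called. KCNJ11, a potassium channel (-0.03), and ILDR1, a tight junction protein (0.27), were not called in the INTS11 line and fell in the INTS8 line (-2.24 and -1.66). RGS2 (0.44), KCNJ11 (0.64) and ILDR1 (0.32) were called higher in the INTS11 line in batch 2.

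The genes with the largest falls were divided. Of the 15 genes with the largest fall 9 were called lower in the INTS8 line and 4 were called higher there: LIN9 (0.45), CRY2 (0.33), LRPAP1 (0.28) and PRPS1 (0.21), with differences from -1.41 to -1.13. LIN9 had 13.3 and 13.5 FPKM with DMSO in the INTS11 line and 7.01 and 6.73 with dTAG13. In all, 102 genes were called lower in the INTS11 line and higher in the INTS8 line with a called difference, and 20 were called higher in the INTS11 line and lower in the INTS8 line. With libraries centred, 100 of the 102 and all 20 still had a called difference in the same direction. That count concerns the difference between lines only. The INTS8 line alone was not fitted with libraries centred, so whether its own calls in these genes would hold was not tested. Among the 102 were the nuclear envelope protein LEMD3 (-0.77 and 0.23), the transcriptional repressor MIER3 (-0.75 and 0.44), the corepressor SIN3B (-0.63 and 0.26), the kinetochore subunit SPC24 (-0.60 and 0.38), ZCCHC10 (-0.63 and 0.62) and the mitochondrial alanyl-tRNA synthetase AARS2 (-0.48 and 0.70). Among the 20 were the nucleotidase NT5M (0.75 and -0.30), the sulfotransferase SULT1C3 (0.63 and -0.74), TMEM170B (0.57 and -0.67) and INSIG1 (0.40 and -0.20). Except for SPC24 and AARS2, these examples were chosen after their values were seen.

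**Figure D5:**
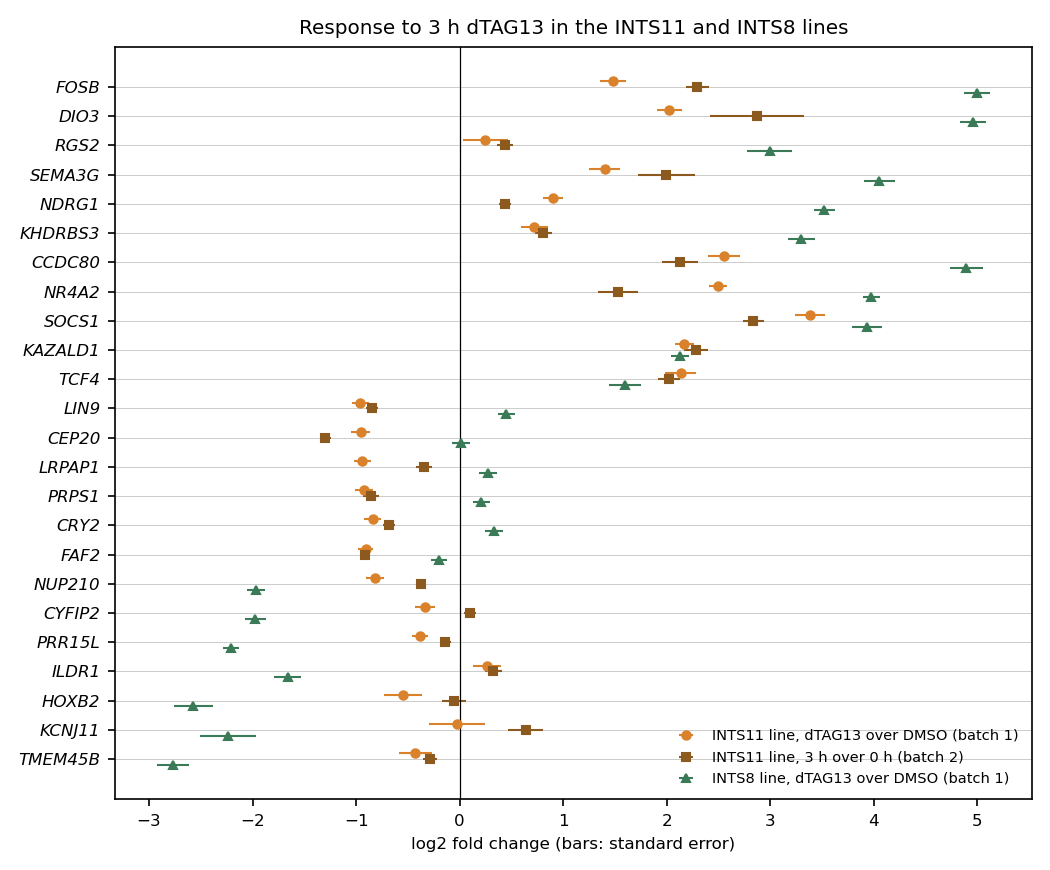
Log2 fold change with its standard error for 24 named genes in the INTS11 line against DMSO (orange circles), in the INTS11 line at 3 h against 0 h in batch 2 (brown squares) and in the INTS8 line against DMSO (green triangles). FOSB to KHDRBS3 lie further right in the INTS8 line, LIN9, LRPAP1, PRPS1 and CRY2 lie left of 0 in both INTS11 comparisons and right of 0 in the INTS8 line, and NUP210 to TMEM45B lie further left in the INTS8 line.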

How the data were processed

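Newly made RNA of DLD1 cells was measured by TT-seq in 24 libraries, 12 groups of 2, grouped by their labels. The submitters' processing notes name STAR 2.7.5c and DESeq2 1.26.0 beside Picard 2.23.3, SAMtools 1.9 and Trim Galore 0.6.6, and the builds hg19 and mm10 without their roles. The kit was stranded, per the labels' protocols. The deposited values are FPKM, per the file headers. Those of batch 1 were whole numbers per kb of gene (all within 0.02 units), and since scaling before rounding would not be seen, no count test was the main one. Those of batch 2 held a further factor per library, estimated at 0.565 to 0.753.

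Log2(FPKM + 0.1) of genes whose mean over a batch's 12 libraries reached 0.1 was fitted with limma 3.58.1 (R 4.3.3), 1 mean per group, trended and robust spread, two-sided, Benjamini-Hochberg at 0.05 within a contrast. Such fold changes understate changes of low genes. p-values measure the spread between the deposited duplicates. On simulated data the fit was tested before use. Named genes were the 15 largest rises and falls at a mean of at least 1 FPKM without overlap of the groups, 3 members per list, the 5 of highest level and 6 per direction of the line difference at the same minimum, and members that a sentence needed. The 47 lists and the members were chosen with earlier results of these data known. Symbols matched RefSeq (GRCh38.p14) for 6572 of 6579 genes. Alternatives were other pseudocounts and filters, centring, loess for level or length, a replicate block, fewer libraries, averaged pairs, voom and each library left out. Some genes are not reported here.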

Additional observations from a re-analysis of the deposited data

Results flagged for a closer look

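The response to dTAG13 differed between the INTS11 and INTS8 lines, by the test of the difference itself, in the genes below, which are those among the 15 largest rises, the 15 largest falls and the 12 picked for the difference. Other named genes also differed, such as FOS (-2.43) and DLL4 (-2.39). Values are the log2 fold change of the INTS11 line minus that of the INTS8 line. In FOSB (-3.52), DIO3 (-2.93), RGS2 (-2.75), SEMA3G (-2.65), NDRG1 (-2.62), KHDRBS3 (-2.58), CCDC80 (-2.34), NR4A2 (-1.48), PRDM7 (-1.36) and ENO3 (-0.59) the INTS8 line rose further. In LIN9 (-1.41), LRPAP1 (-1.22), CRY2 (-1.17), PRPS1 (-1.13), CEP20 (-0.97), FAF2 (-0.71) and EIF4E (-0.41) the INTS11 line fell further or alone. In TMEM45B (2.34), KCNJ11 (2.21), HOXB2 (2.02), ILDR1 (1.93), PRR15L (1.82), CYFIP2 (1.64), NUP210 (1.14) and SH3D21 (0.62) the INTS8 line fell further or alone. Part of the naming rule picked genes for this difference.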

How the results depend on the processing

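With pairs that agree within sampling noise averaged, the called genes went from 2575 to 1370 (492 lower), those of the difference between lines from 1673 to 904, and those of batch 2 from 3847 to 2275. Voom called 2099 genes higher. A pseudocount of 1 moved the genes higher by 1.5-fold from 550 to 309, and voom moved those lower by 1.5-fold from 79 to 40. Centring moved the genes higher in the INTS11 line than in the INTS8 line from 395 to 1373. Leaving out 1 library at a time, a lone library being assumed to vary like the other groups, gave 1686 to 2033 called genes in the INTS11 line, 948 to 1125 higher and 713 to 1059 lower, 1294 to 1563 for the difference between lines and 3021 to 3390 in batch 2. With a replicate block 2525 genes were called in the INTS11 line, 1694 for the difference and 3868 in batch 2. Replicate numbers did not pair the libraries (r of deviations -0.01 in the INTS11 line). Of 182 called genes that the naming rule took, 29 lost the call with averaged pairs, 11 with the loess correction for level, 4 with the block and 17 to 29 without 1 library, and none changed direction in any alternative run. Depth limits genes of low level: a value under 1 FPKM in a short gene rests on a few units.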
